A study of Mus musculus with 12 samples.

Results

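The 8 genes of arginine, creatine and polyamine metabolism followed here in primary mouse microglia were *Nos2*, *Gatm*, *Gamt*, *Odc1*, *Slc7a1*, *Slc7a2*, *Ass1* and *Asl*. They were chosen by symbol as transporters of arginine and as enzymes that make it, use it, or act on its products on the way to creatine and polyamines, and all 8 of them had 1 identifier each among the 48623 genes of the table. RNA-seq was performed on microglia with both copies of *Trem2* carrying the knocked-in R47H change (homozygous, KI) and on wild-type (WT) microglia, both on the C57BL/6J background. The 12 libraries fell into 4 groups of 3, from untreated cells and from cells kept for 48 h in interleukin-4 (IL-4) at 20 ng/ml. Their names carry 6 numbers, WT T13, T33, T43 and KI T15, T22, T32, each on 1 untreated and 1 treated library, and a number is taken here to mark a culture, which the labels do not state. The microglia were grown in mixed glial culture from the cortex and hippocampus of newborn pups and then separated from the astrocyte layer by mild trypsin treatment. The study describes the WT cells of the RNA-seq as coming from littermates of the homozygous KI mice, and in its methods the pups of the knock-in line are cultured one by one and genotyped afterwards. The R47H allele sits in the endogenous mouse *Trem2* gene, where the methods and labels name no driver or cell type restriction, and it is known to lower *Trem2* mRNA in mice, which limits it as a model of the amino acid change alone.

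Arginine is the shared substrate of several competing enzymes. It can be split into urea and ornithine, nitric oxide synthase turns it into nitric oxide and citrulline, and glycine amidinotransferase moves its amidino group to glycine as the opening step of creatine synthesis. Ornithine decarboxylase takes the ornithine on to the polyamines, while argininosuccinate synthase and lyase rebuild arginine from citrulline. In mouse macrophages, IL-4 signals through STAT6 and brings about alternative activation, whereas *Nos2* is a marker of the pro-inflammatory state.

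All values are TPM, transcript abundances corrected for transcript length that sum to 1000000 in every library, so that the read count behind a value is unknown and its precision is given by the spread between cultures. A value of 0 is given only as listed, since it does not show that a transcript was missing. Tests were made with limma on log2(TPM + 1), a scale that understates the change of genes with few TPM, over the 11204 genes with a mean above 1.5, and Benjamini-Hochberg adjusted p-values under 0.05 were counted as past the threshold. Standard errors of log2 differences are written as SE. *Trem2* was between 325 and 769.9 TPM in KI and between 1190.4 and 1886 TPM in WT libraries, which did not overlap (log2 difference -1.43, adjusted p = 0.00763, limma's F-test). Of 8 genes listed as checks of the treatment, 6 could be tested and 5 rose with IL-4, led by *Retnla* (log2 difference 9.21). All 10 microglial markers were above 0 in every library, and their summed level was between 17642 and 23634 TPM in WT and between 7751 and 17134 TPM in KI libraries. The 9 astrocyte markers were each above 0 in at least 1 library, and their summed level was 4788 TPM in the untreated and 3656 TPM in the IL-4-treated library of KI culture T15, against 166.5 to 691 TPM in the other 10 libraries. Summed markers of mural cells and fibroblasts were between 141 and 553 TPM in WT and between 700.5 and 1313 TPM in KI. Most of this sum was *Acta2* and *Tagln*. *Col1a1* and *Col1a2* were highest in treated WT T43 (85.9 and 81.7 TPM), against at most 28.8 and 31.8 TPM in KI. The other markers of this list were at most 9.59 TPM. The oligodendrocyte lineage markers summed to between 33.1 and 93.06 TPM in WT and between 93.07 and 455 TPM in KI. The markers of neurons, with *Syt1* at 0, summed to at most 53.2 TPM, those of endothelium, with *Cldn5* at 0, to at most 10.0 TPM, and those of other blood cells, with *Ly6g* and *Hbb-bs* at 0, to at most 14.9 TPM. In bulk libraries such as these, fewer cells of a type and less RNA per cell cannot be told apart.

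Promoter sequence was taken from RefSeq (build GRCm38.p6), where 5 of the 8 genes had an entry, as windows of 300 bases from 250 before to 50 after the start site. The start sites are those of RefSeq. For *Ass1*, *Gatm* and *Odc1* they lie inside the gene spans given below, so part of the bases before the start falls within the span. Each window was searched on both strands for TTCNNNNGAA, the spacing that STAT6 is known to prefer, for TTCNNNGAA, the general STAT spacing, for CACGTG, an E-box bound by MYC among others, and for GAGGAAGT, a PU.1-like site. These motifs are in 6.95%, 8.3%, 7.15% and 3.2% of the 32851 promoters of the same length, and they do not overlap one another in the windows of these genes. None was found in the windows of *Gatm*, *Gamt*, *Odc1* or the upstream start of *Slc7a1*. The CACGTG motif begins 36 bases before the start of *Ass1*, and TTCNNNGAA begins 146 bases before a second start of *Slc7a1*. The 250 bases before the start are shown for the gene of the set with an entry that rose with IL-4 (*Gatm*, chr2:122611278-122611527, minus strand), for the gene that was higher in KI (*Odc1*, chr12:17544623-17544872, plus strand) and, with its motif in capitals, for the second *Slc7a1* start (chr5:148392816-148393065, minus strand), whose gene did not pass any test.
*Gatm*: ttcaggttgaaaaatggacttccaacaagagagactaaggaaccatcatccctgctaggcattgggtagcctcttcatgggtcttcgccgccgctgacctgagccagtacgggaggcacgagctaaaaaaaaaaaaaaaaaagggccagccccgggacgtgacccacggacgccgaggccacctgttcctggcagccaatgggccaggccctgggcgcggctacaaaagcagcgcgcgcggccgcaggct
*Odc1*: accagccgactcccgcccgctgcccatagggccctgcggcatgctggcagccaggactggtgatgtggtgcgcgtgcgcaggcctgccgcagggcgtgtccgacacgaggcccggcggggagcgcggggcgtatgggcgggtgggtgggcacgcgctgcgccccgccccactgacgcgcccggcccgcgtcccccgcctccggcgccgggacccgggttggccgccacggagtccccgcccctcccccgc
*Slc7a1*, second start: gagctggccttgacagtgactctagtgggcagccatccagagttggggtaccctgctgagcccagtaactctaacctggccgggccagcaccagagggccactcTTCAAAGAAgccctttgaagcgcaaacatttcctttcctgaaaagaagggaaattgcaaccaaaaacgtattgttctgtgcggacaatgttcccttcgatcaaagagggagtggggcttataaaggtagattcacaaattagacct
A match is only a stretch of letters and not a bound site, and no match says only that these letters are not in this window.

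With IL-4, the transcripts of an arginine transporter and of an enzyme that uses arginine rose, whereas neither gene for making it passed the test. Of the 7 genes of the set that could be tested, 2 rose with IL-4 and none fell, in limma's F-test over both genotypes. The 2 were *Slc7a2*, the transporter, and *Gatm*, the first enzyme of creatine synthesis. Of all genes tested, 0.75% rose and 0.143% fell. In the same 2 genes every one of the 6 IL-4-treated libraries lay above every one of the 6 untreated libraries, as it did for 1.12% of all genes tested. A difference of 1 sign in all 6 cultures was seen in 2 of the 7 genes, the same 2, and in 8.24% of all genes tested. The median log2 difference was 0.22 over the 7 genes and 0.043 over all genes tested.

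**Figure D1:**
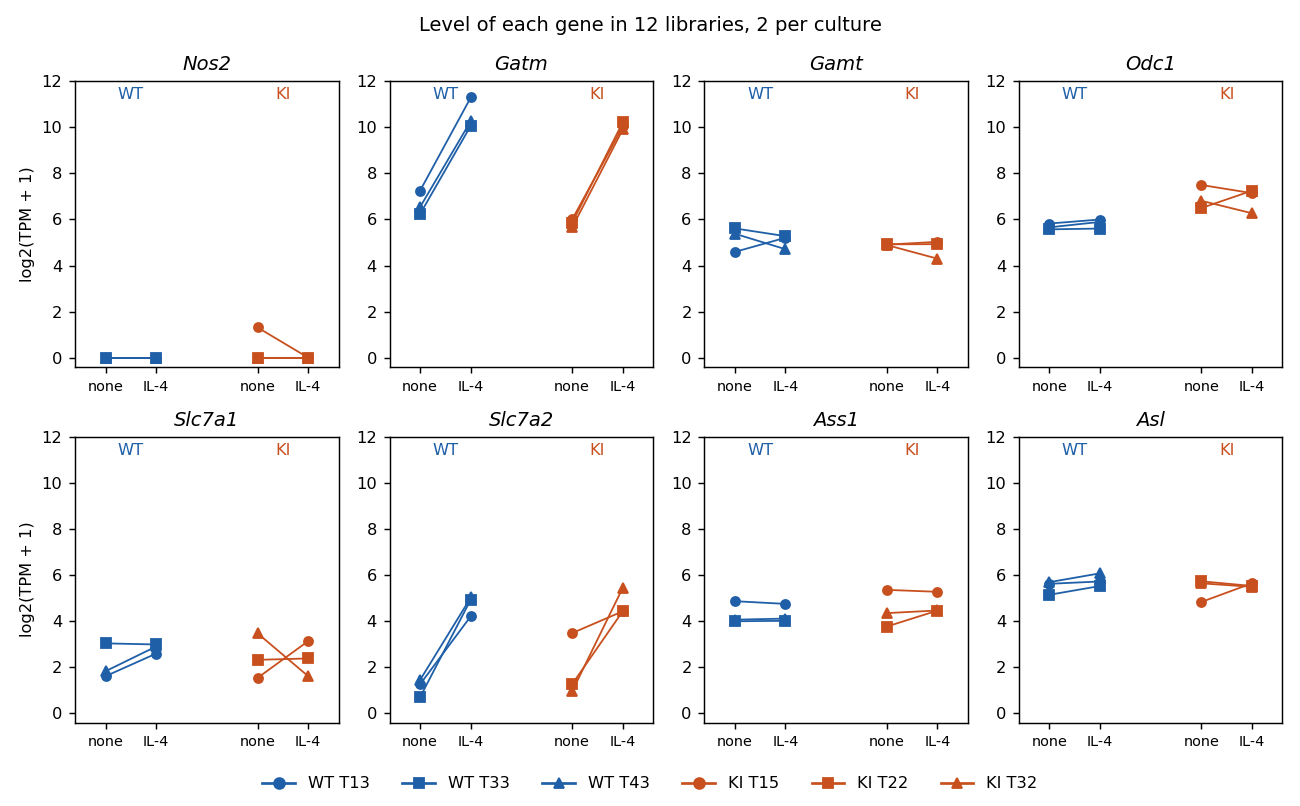
Level of each of the 8 genes as log2(TPM + 1) in the 12 libraries, with a line joining the untreated (none) and the IL-4-treated library of a culture, WT in blue and KI in orange. *Gatm* and *Slc7a2* rise along all 6 lines, *Odc1* sits higher in KI, and *Nos2* is at 0 in 11 of 12 libraries.

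*Nos2*, the inducible nitric oxide synthase (chromosome 11, 78920787 to 78960254, plus strand), stood at 0 in 11 of the 12 libraries and at 1.48 TPM in untreated KI culture T15. It was the only gene of the set below the expression limit, and in the fit with no limit its adjusted p was 0.867 for IL-4 (limma's F-test). No fold is given, since both groups were at or near 0.

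Of the pair of cationic amino acid transporters that bring arginine into the cell, *Slc7a2* rose with IL-4 and *Slc7a1* did not pass the test. *Slc7a2*, which encodes CAT2 (chromosome 8, 40862396 to 40922308, plus strand), was at 1.39, 0.62 and 1.72 TPM in the untreated libraries of WT (in the order T13, T33, T43, kept throughout) and, in those of KI (in the order T15, T22, T32), at 10.1, 1.40 and 0.94 TPM. With IL-4 it was at 17.5, 29.6 and 31.5 TPM in WT and at 20.5, 20.6 and 42.8 TPM in KI. The untreated library of KI culture T15, the one with the most astrocyte marker RNA, was well above the other 5 untreated libraries but still below all treated ones. In the treated KI libraries the astrocyte marker sums were 3656, 602.5 and 639 TPM, and the part of other cells was not tested. The log2 difference of *Slc7a2* with IL-4 was 3.23 (SE 0.42, limma F-test, adjusted p = 0.00305). The call was lost with no expression limit (adjusted p = 0.0751) or without WT culture T33 (adjusted p = 0.0567), and it was 3.71 without culture T15 (adjusted p = 0.00029). *Slc7a1*, which encodes the widely expressed CAT1 (chromosome 5, 148327410 to 148399904, minus strand), was between 1.90 and 10.1 TPM in the 12 libraries with no order by treatment. Its log2 difference with IL-4 was 0.30 (SE 0.42, limma F-test, adjusted p = 0.998).

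Creatine synthesis takes 2 enzymes, and the transcript of the first one rose with IL-4 while that of the other did not pass the test. *Gatm*, glycine amidinotransferase (chromosome 2, 122594467 to 122611303, minus strand), was at 151, 74.3 and 91.8 TPM in the untreated libraries of WT and at 62.8, 56.6 and 49.2 TPM in those of KI. With IL-4 it was at 2500.2, 1070.3 and 1233 TPM in WT and at 1045, 1195 and 959 TPM in KI. The rise was between 13.4-fold and 16.6-fold in the WT cultures and between 16.6-fold and 21.1-fold in the KI cultures. After IL-4, *Gatm* was the most abundant of the 8 transcripts in every library and stood between rank 38 and rank 97 of all genes. The log2 difference was 4.05 (SE 0.21, limma F-test, adjusted p = 1.189e-06), and it stayed past the threshold in all 15 alternative analyses. *Gamt*, guanidinoacetate methyltransferase (chromosome 10, 80258151 to 80261012, minus strand), which completes creatine, was between 18.6 and 47.9 TPM in all 12 libraries. Its log2 difference with IL-4 was -0.14 (SE 0.21, limma F-test, adjusted p = 1.00).

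*Odc1*, ornithine decarboxylase, the rate-limiting enzyme of polyamine synthesis (chromosome 12, 17544794 to 17551505, plus strand), did not pass the IL-4 test, and its treated and untreated levels were interleaved in both genotypes. Its log2 difference with IL-4 was 0.051 (SE 0.20, limma F-test, adjusted p = 1.00), with higher values in 4 of 6 cultures. It was instead the 1 gene of the set past the threshold for genotype. WT libraries were at 55.5, 46.4 and 49.4 TPM untreated and at 62.8, 47.6 and 58.3 TPM with IL-4. KI libraries were at 179, 89.0 and 111 TPM untreated and at 140, 150.5 and 75.9 TPM with IL-4. The lowest KI library, treated T32, was above the highest WT library, treated T13.

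The KI minus WT difference of *Odc1* was 1.15 on the log2 scale (SE 0.20, limma F-test, adjusted p = 0.0305), where 1.65% of all genes tested passed. Its 6 KI libraries did not overlap the 6 WT libraries, which was the case for 2.78% of all genes tested. The median genotype difference of all genes was 0.129 as deposited, and *Odc1* was 1.02 above it. When each library was scaled to its microglial markers, an analysis added after seeing the data, these were 0.70 and 1.06. Scaling a library moves its genes by about the same amount, so the distance to the median changes little by construction. The scaling markers *Aif1*, *Csf1r*, *Itgam* and *Fcrls* were themselves lower in KI (log2 differences -0.93, -0.83, -0.85 and -0.66, limma F-test, adjusted p = 0.0211, 0.0408, 0.0408 and 0.0456). The differences of the other scaling markers were negative too but did not pass, and this raises other genes in KI. As deposited, with marker scaling, with quantile normalization and with median-ratio scaling, the share of genotype calls that were higher in KI was 78.4%, 99.5%, 60% and 67.7%. The *Odc1* call was lost with no expression limit (adjusted p = 0.211), with no variance trend (adjusted p = 0.0966), with a random replicate block for culture (adjusted p = 0.0558) and without WT culture T13, T33 or T43 (adjusted p = 0.0504, 0.193 and 0.188) or KI culture T15 (adjusted p = 0.0914), while its log2 difference stayed between 0.95 and 1.34 when a culture was left out.

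Culture T15 had both the highest astrocyte marker sum and the highest untreated *Odc1*. The untreated library of KI culture T22 had an astrocyte marker sum of 220.2 TPM and *Odc1* at 89.0 TPM, and in its treated library both were higher, at 602.5 and 150.5 TPM, whereas in T32 the sum went from 601 to 639 TPM with IL-4 and *Odc1* from 111 to 75.9 TPM. The libraries of WT culture T13 had sums of 691 and 615 TPM and *Odc1* at 55.5 and 62.8 TPM, while those of WT cultures T33 and T43, with sums of 166.5 to 202.9 TPM, were below every KI library in both measures. The mural and fibroblast marker sums and the oligodendrocyte lineage sums were higher in all 6 KI libraries than in all 6 WT libraries, as *Odc1* was. This held for *Acta2*, *Tagln* and *Olig1*, which make up most of these sums in KI, but not for *Col1a1*, *Col1a2* or *Cspg4*. The oligodendrocyte lineage sum, most of which was *Olig1* in KI, went from 455 to 315 TPM with IL-4 in T15. It went from 110 to 158 TPM in T22 and from 162 to 93.07 TPM in T32, in the same direction as *Odc1* in each of these cultures. In WT culture T33 it went from 46.2 to 35.4 TPM while *Odc1* went from 46.4 to 47.6 TPM, and in T13 and T43 both were higher with IL-4. The part of other cells in the level of *Odc1* was not tested.

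**Figure D2:**
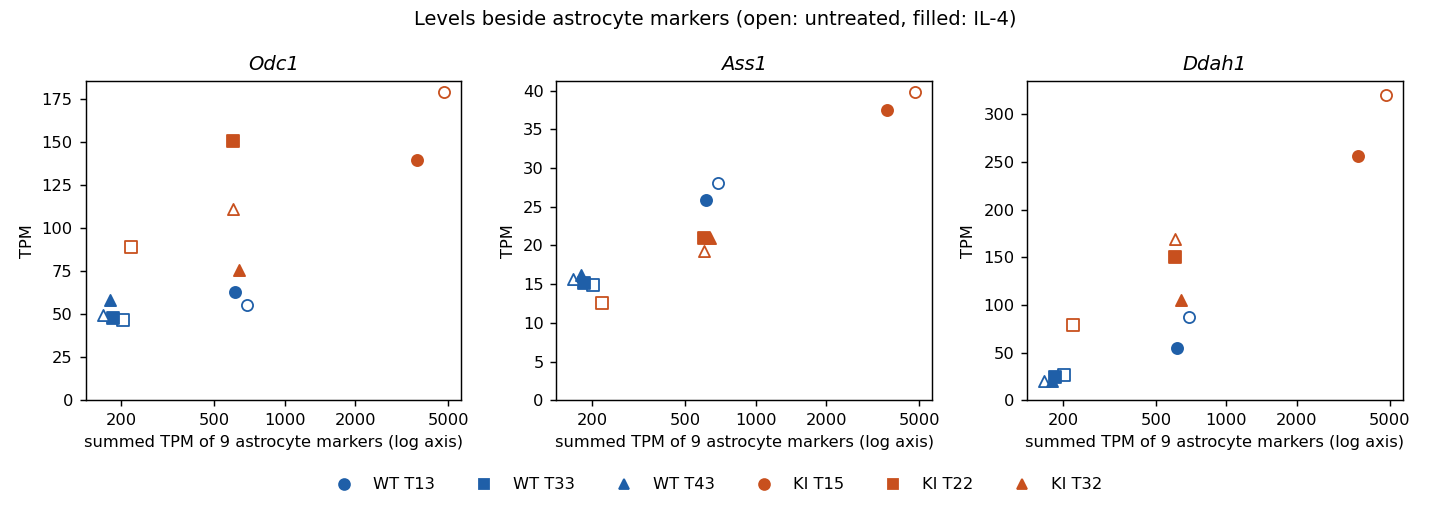
TPM of *Odc1*, *Ass1* and *Ddah1* in each library against the summed TPM of 9 astrocyte markers on a log axis, with open symbols for untreated and filled symbols for IL-4-treated libraries. The KI culture T15 lies far to the right at 3656 and 4788 TPM of markers, and the KI libraries lie above the WT libraries for *Odc1* but are interleaved with them for *Ass1*.

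*Ass1* and *Asl*, the argininosuccinate synthase and lyase that rebuild arginine from citrulline, did not pass any test. *Ass1* (chromosome 2, 31470207 to 31520672, plus strand) was at 28.1, 14.9 and 15.7 TPM in the untreated libraries of WT and at 39.9, 12.6 and 19.3 TPM in those of KI. With IL-4 it was at 25.8, 15.1 and 16.2 TPM in WT and at 37.5, 20.9 and 21.0 TPM in KI. By library it was highest in both libraries of T15 and next in both libraries of T13, the 2 cultures with the highest astrocyte marker sums without IL-4. With IL-4 the sums of T32 and T22, at 639 and 602.5 TPM, were close to that of T13 at 615 TPM, while *Ass1* was at 21.0 and 20.9 TPM there and at 25.8 TPM in T13, and the part of other cells was not tested. *Asl* (chromosome 5, 130011258 to 130029247, minus strand) was between 27.4 and 66.2 TPM in the 12 libraries, with a log2 difference with IL-4 of 0.22 (SE 0.19, limma F-test, adjusted p = 0.991).

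**Figure D3:**
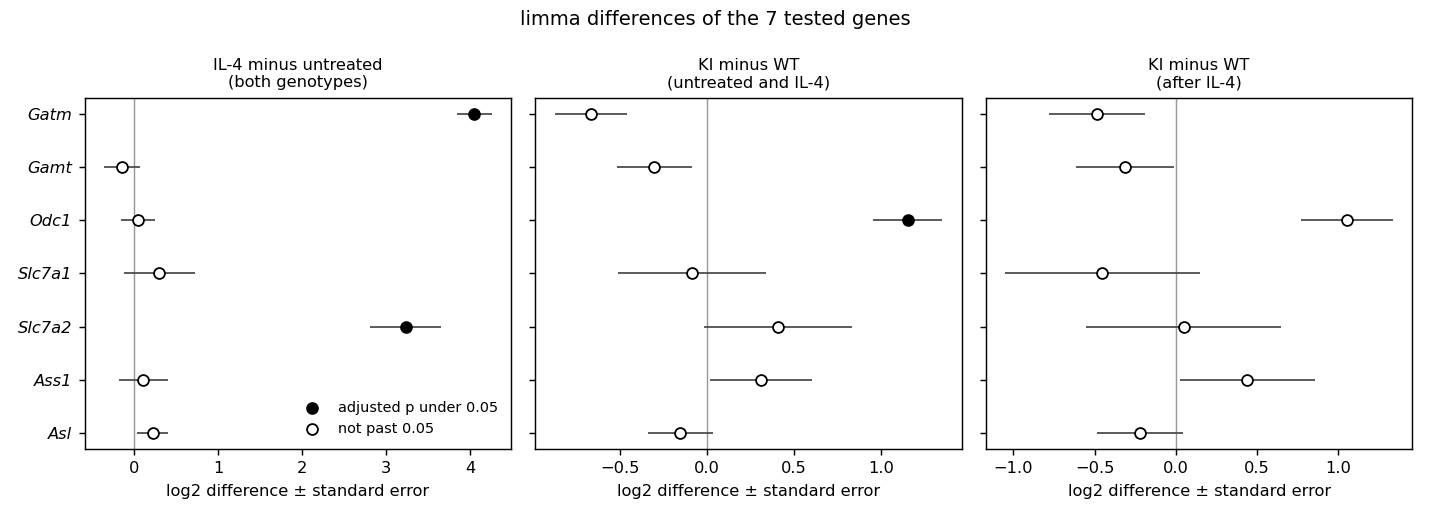
Log2 differences of the 7 tested genes with their standard errors (SE) from limma, for IL-4 minus untreated, KI minus WT over both treatments, and KI minus WT after IL-4 (each panel has its own axis). Filled points are past an adjusted p of 0.05, which are *Gatm* and *Slc7a2* for IL-4 and *Odc1* for genotype.

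Whether the response to IL-4 differed with the *Trem2* genotype was asked by comparing KI and WT after IL-4 and by the interaction of genotype and IL-4. None of the 7 genes passed the former in limma's test, where 0.0179% of all genes tested passed, and 1 of them, *Odc1*, had an unadjusted p under 0.05, as had 1151 of the 11204 genes tested. None passed the interaction in limma's test, which 0% of all genes tested passed, although 357 of those, and 0 of the 7, had an unadjusted p under 0.05. In *Odc1* the 3 treated KI libraries did not overlap the 3 treated WT libraries, as in 18.5% of all genes tested. In untreated libraries this held for *Gatm*, lower in KI, and *Odc1*, against 18.2% of all genes tested.

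*Gatm* was 106 ± 40.0 TPM in the untreated libraries of WT and 56.2 ± 6.85 TPM in those of KI (SD, n = 3 each), and 1601 ± 783 TPM and 1067 ± 119 TPM after IL-4. Its genotype difference of -0.66 (SE 0.21) fell short of the threshold (limma F-test, adjusted p = 0.203), and it was -0.046 with microglial marker scaling. Relative to the median of all genes these were -0.79 and -0.75, which such a scaling keeps close by construction. The size of the *Gatm* IL-4 response in TPM, a comparison added after seeing the data, overlapped between the genotypes (exact permutation p = 0.2, 2-sided), as did that of *Slc7a2* (exact permutation p = 1.00, 2-sided).

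The levels within a library were also compared between the members of a pair. *Slc7a2* made up between 7.98% and 40.5% of the summed *Slc7a1* and *Slc7a2* TPM in 5 untreated libraries, 84.2% in the untreated library of T15, and between 72.5% and 95.4% with IL-4. This share was higher in 5 of 6 cultures (exact sign-flip permutation p = 0.0625, or 0.188 after Benjamini-Hochberg adjustment over the 6 tests of this kind). The ratio of *Gatm* to *Gamt* was between 1.55 and 6.54 without and between 28.4 and 69.7 with IL-4 (higher in 6 of 6 cultures, exact sign-flip permutation p = 0.0312, the smallest that 6 cultures can give, adjusted 0.188). After IL-4 no difference between KI and WT in these was detected, with an exact permutation p (2-sided) of 0.7 for the transporter share and 0.7 for the ratio, where 3 against 3 cultures cannot go below 0.1.

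**Figure D4:**
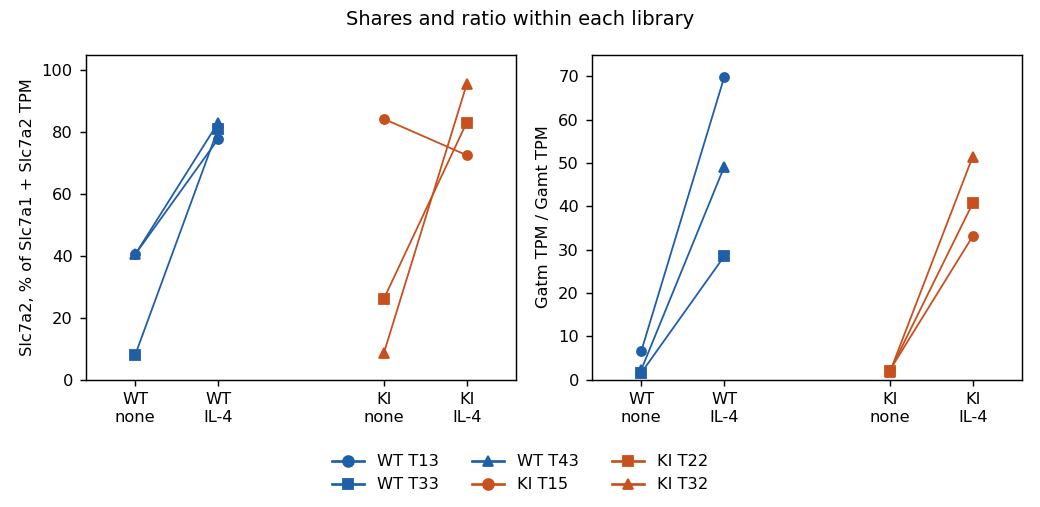
Percentage of the TPM of the transporter pair that was *Slc7a2*, and ratio of *Gatm* to *Gamt* TPM in each library, with a line joining the untreated (none) and IL-4-treated library of a culture. All 6 lines rise for the ratio, whereas for the transporter share KI culture T15 starts at 84.2% and ends at 72.5%.

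Around these 8 genes, 64 further genes of the same metabolism were listed, of which 47 could be tested. With IL-4, 1 of the 47 rose and none fell, where 0.75% of all genes tested rose, with a median log2 difference of 0.020 against 0.043 over all genes. For genotype 1 of the 47 was higher and none lower in KI, where 1.65% of all genes tested passed. None passed the test of genotype after IL-4 or the interaction. The gene that rose was *Sat1*, the spermidine/spermine acetyltransferase that marks polyamines for breakdown and export. *Sat1* was at 662, 526 and 490.4 TPM in the untreated libraries of WT and at 315, 563 and 377 TPM in those of KI, and with IL-4 at 1375, 844 and 997 TPM in WT and at 765, 909 and 795 TPM in KI. Its 6 treated libraries were all above its 6 untreated ones, with a log2 difference of 0.97 (SE 0.16, limma F-test, adjusted p = 0.0215). The call was lost in 7 of 15 alternative analyses, with adjusted p-values there of 0.0531 to 0.219, among them those without KI culture T32 (0.125) or WT cultures T33 (0.0788) and T43 (0.176).

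The other 11 tested genes of polyamine synthesis and breakdown did not pass the IL-4 test. *Eif5a*, the translation factor that carries the spermidine-derived amino acid hypusine, was 603 ± 54.0 TPM in WT and 692 ± 81.7 TPM in KI without and 934 ± 55.2 TPM in WT and 878 ± 35.8 TPM in KI with IL-4 (SD, n = 3 each). Its treated and untreated libraries did not overlap, and its log2 difference of 0.49 (SE 0.098) was just short of the threshold (limma F-test, adjusted p = 0.0569). It passed in 4 of 15 alternative analyses, among them the one with a fixed replicate block for culture (adjusted p = 0.00649), and was 0.32 with quantile normalization (adjusted p = 0.498). Of the polyamine transporters, *Atp13a2*, a lysosomal polyamine exporter, had the smallest p at a log2 difference of 0.42 (SE 0.17, limma F-test, adjusted p = 0.741).

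The gene higher in KI was *Ddah1*, a dimethylarginine dimethylaminohydrolase, which removes methylated arginines that inhibit nitric oxide synthase. *Ddah1* was at 87.7, 26.4 and 19.9 TPM in the untreated libraries of WT and at 319.9, 78.8 and 169 TPM in those of KI, and with IL-4 at 55.3, 23.9 and 20.3 TPM in WT and at 256, 151 and 105 TPM in KI. Its genotype difference was 2.26 on the log2 scale (SE 0.41, limma F-test, adjusted p = 0.0364). The highest values were those of T15, as for the astrocyte markers, and without T15 the difference was 1.84 (adjusted p = 0.113). The call was lost in 7 of 15 alternative analyses, which besides that one were those with no expression limit, no variance trend or a random replicate block and those without KI culture T32 (adjusted p = 0.0812) or WT cultures T33 (0.214) and T43 (0.218). The mural and fibroblast sums, mostly *Acta2* and *Tagln*, and the oligodendrocyte lineage sums, mostly *Olig1* in KI, were higher in all KI than in all WT libraries. *Col1a1*, *Col1a2* and *Cspg4* did not follow this order. With IL-4 the oligodendrocyte lineage sums moved in the same direction as *Ddah1* in each culture but WT T13. There the sum went from 86.8 to 93.06 TPM and *Ddah1* from 87.7 to 55.3 TPM. In KI culture T32 the astrocyte sum went from 601 to 639 TPM while *Ddah1* went from 169 to 105 TPM. The part of other cells was not tested.

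In the remaining lists no gene passed a test. Of the rest of the urea cycle, *Cps1*, *Otc* and *Nags* were listed at 0 in all libraries, and among the mitochondrial carriers *Slc25a15* had the smallest p for IL-4 (log2 difference 0.39, SE 0.40). For the other arginine carriers this was *Slc7a7*, the subunit that exports cationic amino acids (-0.14, SE 0.19), for the ornithine to proline and glutamate branch *Aldh18a1* (-0.45, SE 0.28), for creatine transport and kinases the creatine transporter *Slc6a8* (-0.36, SE 0.36) and for S-adenosylmethionine synthesis *Mat2a* (0.24, SE 0.14), with adjusted p-values of 0.895 to 0.999 in limma's F-test. *Agmat* was listed at 0 throughout.

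**Figure D5:**
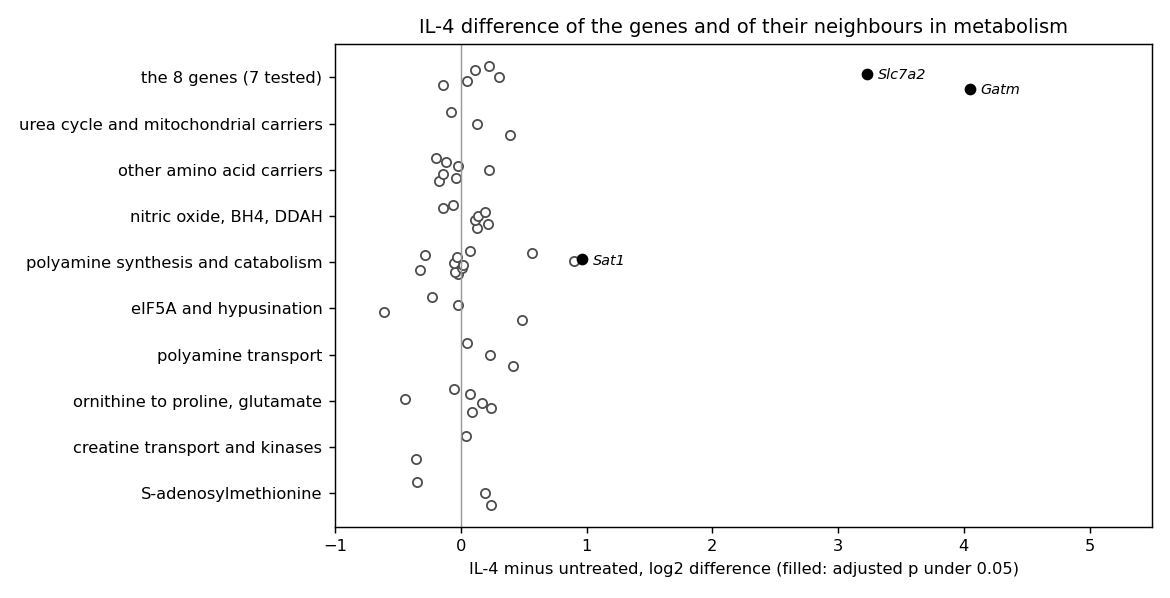
Log2 difference with IL-4 of each tested gene (1 point per gene), in rows for the 8 genes of the set and for 9 lists of neighbouring genes, with filled points past an adjusted p of 0.05. Apart from *Gatm* and *Slc7a2* in the top row, *Sat1* at 0.97 is the only filled point, and the other neighbours lie between -0.61 (*Eif5a2*) and 0.90 (*Azin2*).

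The patterns most like those of the 2 responding genes were found by the smallest mean absolute difference of z-scores over the 12 libraries among all genes tested. For *Gatm* they were *Smap2* (0.167), *Cd74* (0.21), *Rnf19b* (0.211), *Tmem26* (0.216) and *Flt1* (0.219). For *Slc7a2* they were *Ado* (0.225), *Retnla* (0.258), *Rnase2a* (0.26), *Ap2m1* (0.277) and *Alas1* (0.28). Neither was among the 5 nearest of the other, and no gene was in both lists.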

How the data were processed

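Polyadenylated RNA of 12 libraries, 3 per combination of genotype and IL-4, was sequenced as paired-end reads. The authors used Trim Galore for trimming, Salmon with ENSEMBL GRCm38 for transcript abundance and tximport for gene values, and the deposited values are TPM per gene and library. Tool versions are not given in the sources used here. The study's methods state a sequencing depth, but TPM holds no counts, so the depth of each library as counted is unknown and the count-based test of the study's methods was replaced by limma. The kit does not mark strand, so overlapping genes can share reads. *Odc1* overlaps the small nucleolar RNA gene *Gm22748* on the same strand, which was at most 17.5 TPM. *Slc7a2* overlaps the non-coding gene *Gm26584* on the opposite strand, at most 0.684 TPM.

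Identifiers were matched to the GRCm38 annotation, which named 48350 of 48623 genes and gave coordinates. Values were taken as log2(TPM + 1), and genes with a mean above 1.5 were fitted with limma 3.58.1 (R 4.3.3; lmFit, then eBayes using a variance trend) on genotype, IL-4 and their interaction over 12 libraries. IL-4 and genotype were tested by F-tests of 2 coefficients including the interaction, with the direction from the average over the other factor. The fit was tested on simulated data of 11204 genes with 200 changed by 2 on the log2 scale, and it recovered 73.5% for IL-4, 78.5% for genotype, 57.5% for genotype after IL-4 and 38.5% for the interaction. The simulated libraries were independent, with no correlation within a culture, and the change was larger than the *Odc1* and *Sat1* differences. These percentages therefore do not give the power for those genes. Shares and TPM responses were compared by exact permutation over cultures, 2-sided, in Python with scipy.

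An untreated and a treated library were paired by the number that their names share, which no label says to be that of a culture or animal. Deviations from the group means correlated at 0.34, 0.104, 0.104, 0.378, 0.121 and 0.079 in T13, T33, T43, T15, T22 and T32, and the untreated library of T22 correlated best with the treated one of T32. Counts over 6 cultures rest on this pairing. Without the replicate block, the pair of libraries of a culture counts as independent, which for genotype overstates the replication. P-values measure only the spread between these cultures.

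The set has 10 genes by its rule, of which 2 are not reported here, nor are 1 neighbouring gene and 1 marker. Named were the other 8 genes, from each list of neighbouring genes those past a threshold in any test or else the one with the smallest p for IL-4 among those tested, genes that mark a range of values, and the 5 genes most like each gene that passed for IL-4. Genes listed at 0 in all libraries were named after their values were seen. The genes, lists and tests were chosen with earlier results of these data known. Alternatives were a pseudocount of 0.1, no limit or a limit of 3 on expression, median-ratio scaling or quantile normalization, a fit without variance trend, the replicate block, a 1-coefficient test and each culture left out. After seeing the data, scaling to microglial markers and a comparison of IL-4 responses in TPM were added. The microglial markers differed with genotype themselves, so scaling to them is not a neutral correction.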

Additional observations from a re-analysis of the deposited data

Results flagged for a closer look

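Of 61 tested genes (the set, its neighbouring lists, the treatment checks and *Trem2*), 2 moved with IL-4 in opposite directions in every WT and every KI culture, as did 305 (2.72%) of all genes tested. *Dhps*, the enzyme that starts hypusine formation on eIF5A, went from 36.1, 33.2 and 42.4 TPM to 28.1, 32.8 and 27.6 TPM in WT and from 26.2, 28.0 and 27.7 TPM to 37.4, 34.5 and 28.5 TPM in KI cultures, and its IL-4 difference was higher by 0.60 (log2) in KI (SE 0.30, limma interaction test, adjusted p = 1.00). *Pts*, of tetrahydrobiopterin synthesis, had one of -0.42 (SE 0.40, adjusted p = 1.00, limma). Neither passed the interaction test. Groups of 3 libraries were too small to be screened for single outlying samples.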

How the results depend on the processing

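With IL-4, *Gatm* kept its direction and call in all alternatives run, and *Slc7a2* in 13 of 15. The number of genes past the IL-4 threshold, 100 in the reported analysis, was 61 with no expression limit, 50 with no variance trend, 240 with culture as a fixed replicate block, 151 with the 1-coefficient test and between 46 and 143 with a culture left out. The number past the genotype threshold, 185, was 16 with no limit, 26 with no trend, 77 with a random replicate block (within-culture correlation 0.198), 575 with the 1-coefficient test, 3236 with microglial marker scaling and between 3 and 191 with a culture left out. Of the 8 genes, the number called for IL-4, 2, was 1 with no limit and 1 to 2 with a culture left out. The number called for genotype, 1 (*Odc1*), was 0 with no limit, no trend and the replicate block, and 0 to 1 with a culture left out. For genotype after IL-4 the number over all genes, 2, was 12 with no limit, 0 with no trend, 53 with marker scaling and 0 to 10 with a culture left out. The interaction gave 4 with no limit and 0 in the reported analysis. The replicate block changed no other call of the 8 genes than that given for *Odc1*.

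Differences that were not called and changed sign were, on the log2 scale, as follows. With IL-4, *Odc1* was -0.0016 with median-ratio scaling, -0.0071 with marker scaling and -0.15 to 0.17 with a culture left out, as *Slc7a1* was -0.12 to 0.75 and *Ass1* -0.0006 to 0.19. For genotype, marker scaling gave 0.30 for *Gamt*, 0.39 for *Slc7a1* and 0.46 for *Asl*, but it also moved the median of all genes from 0.129 to 0.70, and relative to that median they were -0.40, -0.31 and -0.25, against -0.43, -0.21 and -0.28 as deposited. Leaving out a culture gave -0.28 to 0.18 for *Slc7a1* and -0.041 to 0.56 for *Ass1*. After IL-4, *Slc7a2* was -0.14 with quantile normalization, -0.065 with median-ratio scaling and -0.29 to 0.22 with a culture left out, and marker scaling gave 0.038 for *Gatm*, 0.19 for *Gamt* and 0.29 for *Asl*, which relative to a median moved from 0.092 to 0.58 were -0.54, -0.39 and -0.29, against -0.58, -0.40 and -0.31 as deposited. The interaction was 0.044 for *Gamt* with quantile normalization. With a culture left out it was -0.29 to 0.35 for *Gamt*, -0.60 to 0.051 for *Odc1*, -1.57 to 0.16 for *Slc7a1*, -1.53 to 0.25 for *Slc7a2* and -0.47 to 0.041 for *Asl*. That of *Gatm*, 0.36 on the log2 scale, was -485 TPM on the TPM scale. The *Gatm* responses were 2349.5, 995.9 and 1140.8 TPM in WT and 982.5, 1138.8 and 910.3 TPM in KI, with WT culture T13 far above the other cultures. After IL-4, with a culture left out, KI minus WT was -2.80 to 8.68 percentage points for the *Slc7a2* share and -17.7 to 3.01 for the *Gatm* to *Gamt* ratio. Relative to the median of all genes, *Odc1* with IL-4 under median-ratio and marker scaling, and *Slc7a2* after IL-4 under quantile normalization and median-ratio scaling, kept their sign. Scaling a library moves its genes by about the same amount. Values relative to the median therefore change little under median-ratio and marker scaling by construction, and their likeness is no test of stability. The cause of the other changes was not tested. *Slc7a1* could not be tested with the limit of 3.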
